A study of Neurospora crassa with 30 samples.

Results

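The genes described here are the 100 genes of *Neurospora crassa* whose expression level differed least between 10 carbon sources. The level of a gene was its read count divided by the total over all gene rows of the library, expressed as CPM (counts scaled to a library total of 1e+06), and the 3 replicates of each carbon source were averaged. Of 9758 genes counted, 1258 had a mean of 100 CPM or more on every carbon source and are called eligible, and they were ranked by the ratio of the highest to the lowest of the 10 means. The 100 genes with the lowest ratios are the members. Because they were chosen by these levels in all 30 libraries, their levels over carbon sources are given as a description, with no test of steadiness.

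All libraries came from mycelia of the wild type strain FGSC 2489 of this filamentous fungus. Cultures were grown for 16 h in Vogel's minimal medium (VMM) with sucrose, washed free of it, and moved for 4 h to VMM with a single carbon source under constant light. There were 3 replicates on each of avicel (crystalline cellulose), cellobiose, fructose, glycerol, maltose, mannose, sorbose, trehalose, xyloglucan and xylose. The 8 soluble compounds were given at 2 mM, while avicel and xyloglucan were given at 1% (w/v) in the study's methods; the series description gives insoluble sources, such as avicel, at 2% (w/v). All the groups share the strain, the sucrose pre-growth and the transfer, and no library without a carbon source or on sucrose was analysed here. The labels call the samples triplicates and the study calls such replicates biological, and no label states whether they came from separate flasks or days, so p-values measure the spread between these samples, which may be technical.

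Genes of this kind are sought for a practical reason and a biological one. A transcript that keeps its level while the medium changes can serve as a reference against which others are measured, and genes chosen for that purpose are often called housekeeping genes. Among the members that carry a name were subunits of respiratory complex I, which passes electrons from NADH to ubiquinone in the inner mitochondrial membrane, subunits of protein phosphatase 2A, a heterotrimer of a scaffold, a regulatory and a catalytic subunit, and protein kinase C, which signals when the fungal cell wall is under stress. Of the 100 members, 32 had a gene symbol in RefSeq and 16 more an annotation in the study's supplementary gene lists. The other 52 had neither and are named here by their identifiers alone.

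Total counts on genes lay between 13018483 and 21925749 per library, and between 2.43% and 8.79% of reads fell outside genes. A member had between 1219 and 25802 counts in a library, so that counting alone contributed a coefficient of variation (CV) of 0.70% to 2.39% per library. The members together took 2.31% to 2.61% of the gene counts in each library. The summed level of 5 conidiation genes (*con-6*, *con-8*, *con-10*, *con-13* and *eas*) ran from 994 CPM in a cellobiose library to 29178 CPM in an avicel library. The mycelia thus differed in this sum, which was lowest in all 3 cellobiose libraries. The genes weighed unequally in it, with *eas* at 826 to 24884 CPM and *con-13* at 0.660 to 7.73 CPM. The part of asexual spore formation in any member's level was not tested. In such bulk samples fewer cells expressing a gene and less RNA per cell cannot be told apart.

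The ratios of the members ran from 1.08 to 1.36 with a median of 1.27, beside a median of 2.01 and a maximum of 64.9 over the eligible genes. A single gene lay under 1.1, 13 genes lay under 1.2, and 66 under 1.3. At the other side of the threshold the curve went on without a step, with 200 genes (15.9% of the eligible) under 1.5 and 623 (49.5%) under 2. The last members were *rgf1* at 1.354, *syn-2* at 1.356 and NCU04404 at 1.358. The first genes left out were *fim* at 1.358, *vma-1* at 1.359 and NCU05288 at 1.360, so membership at the edge rests on differences far smaller than the spread among replicates.

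**Figure D1:**
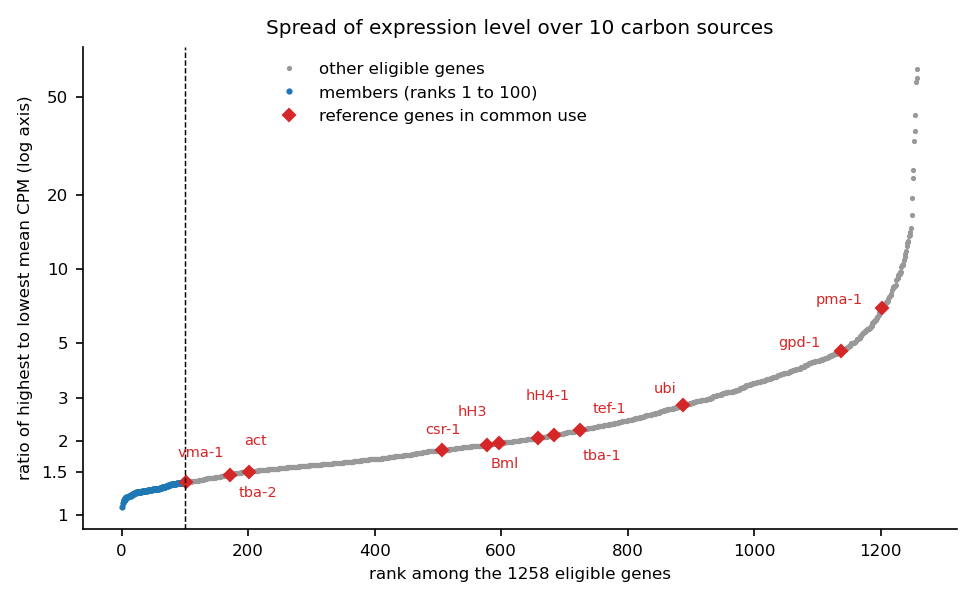
Ratio of the highest to the lowest of the 10 mean CPM (log axis) against rank for the 1258 eligible genes, with the members in blue left of the dashed line and 12 reference genes as red diamonds. The ratio climbs smoothly through the threshold at 1.358, and the diamonds all sit to the right of it, from *vma-1* at rank 102 to *pma-1* at rank 1203.

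The steadiest gene was NCU04190, on chromosome V from 5150381 to 5154171 (assembly NC12, as are all positions here), which has no symbol or annotation. Its 3 libraries gave 128, 151 and 132 CPM on avicel, 145, 137 and 134 on cellobiose, 128, 137 and 141 on fructose, 139, 134 and 138 on glycerol, and 130, 130 and 126 on maltose. They gave 130, 147 and 130 CPM on mannose, 129, 129 and 128 on sorbose, 125, 135 and 139 on trehalose, 137, 138 and 139 on xyloglucan, and 141, 119 and 127 on xylose. The replicates of a single carbon source thus spanned as much as the 10 means did: the means lay between 129 ± 2.52 CPM on maltose and 139 ± 5.79 CPM on cellobiose (SD, n = 3), while the lowest and the highest library, 119 and 151 CPM, belonged to xylose and avicel. Its CV was 5.30% among replicates, which are single libraries, and 2.93% among the 10 means, each an average of 3. Highest and lowest sources named for single genes here are those of plain CPM; 22 of the 100 members kept both with TMM scaling, 17 with DESeq2's size factors and 37 with upper-quartile scaling, which are described further on.

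The second was *pkc* (NCU06544), protein kinase C of cell wall integrity signalling. It had 214, 207 and 220 CPM on fructose, its highest source, and 202, 184 and 184 CPM on sorbose, its lowest, a ratio of 1.12. The third, *nuo17.8* (NCU00969), a complex I subunit, had 250, 238 and 230 CPM on fructose and 229, 197 and 197 CPM on glycerol. Its extremes among single libraries lay elsewhere, at 170 CPM in xylose replicate 2 and 259 CPM in sorbose replicate 1. In each of these genes the widest gap between libraries was thus not the gap between the extreme carbon sources.

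The other genes among the 15 lowest ratios were of mixed kind. NCU01002, annotated as the epsilon subunit of coatomer, the coat of vesicles that travel from the Golgi to the endoplasmic reticulum, ranged from 132 ± 10.7 CPM on avicel to 153 ± 4.80 CPM on cellobiose. The regulatory phosphatase subunit *rgb-1* had a ratio of 1.18, the SCF ubiquitin ligase scaffold *cul-1* 1.20 and *amyc* 1.20. The last encodes a LIM domain protein. NCU05791, annotated as SOM1, a protein that in budding yeast belongs to the inner membrane peptidase of mitochondria, had a ratio of 1.19. The remaining 7, NCU01992, NCU01927, NCU01318, NCU11181, NCU04370, NCU06740 and NCU03855, have no annotation in the sources used here and had ratios from 1.15 to 1.20.

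**Figure D2:**
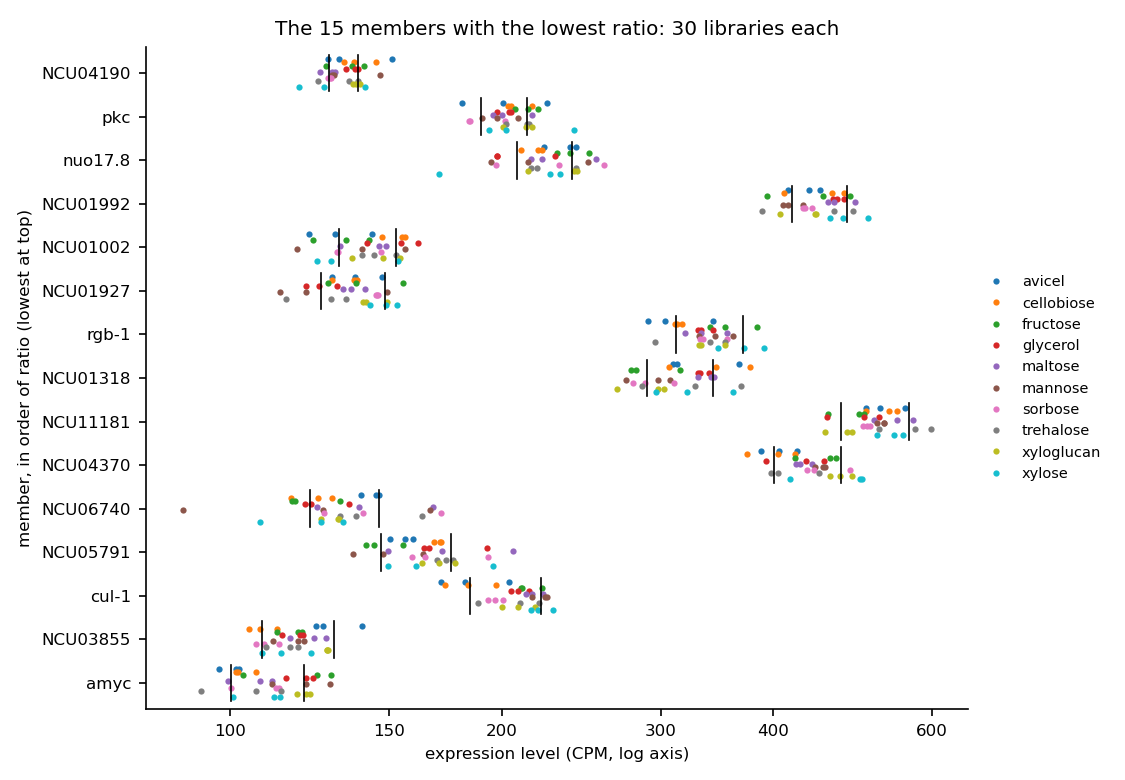
Expression level in CPM (log axis) of the 15 members with the lowest ratios in each of the 30 libraries, coloured by carbon source, with black ticks at the lowest and the highest of the 10 means. The points of a carbon source often spread past the ticks, as in NCU06740, where mannose replicate 3 lies at 88.6 CPM and sorbose replicate 1 at 171 CPM around ticks at 122 and 146 CPM.

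Steadiness of the means did not always come with steadiness of the libraries. Over the members the CV among replicates had a median of 6.34% (3.85% to 14.9%) and the CV of the 10 means a median of 8.04% (2.93% to 12.3%), beside medians of 10.1% and 22.3% over the eligible genes. In 21 of the 100 members the replicates of a carbon source spread more than the 10 means did, which held for 58 of the 1258 eligible genes. These are unlike measures, since single libraries spread more than averages of 3 do. The rule also chose members for a small spread of the means, so these counts are a description. The complex I subunit *nuo21.3c* had the widest replicates of all members, with 234, 229 and 230 CPM on cellobiose and 212, 173 and 156 CPM on sorbose, and replicate 1 was its highest library on 9 of the 10 sources. The tightest replicates were those of the chromatin remodelling factor gene *crf4-3*, whose pooled CV of 3.85% went with a ratio of 1.35. Over all 30 libraries the highest level of a member was 1.27 to 1.93 times its lowest (median 1.45).

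**Figure D3:**
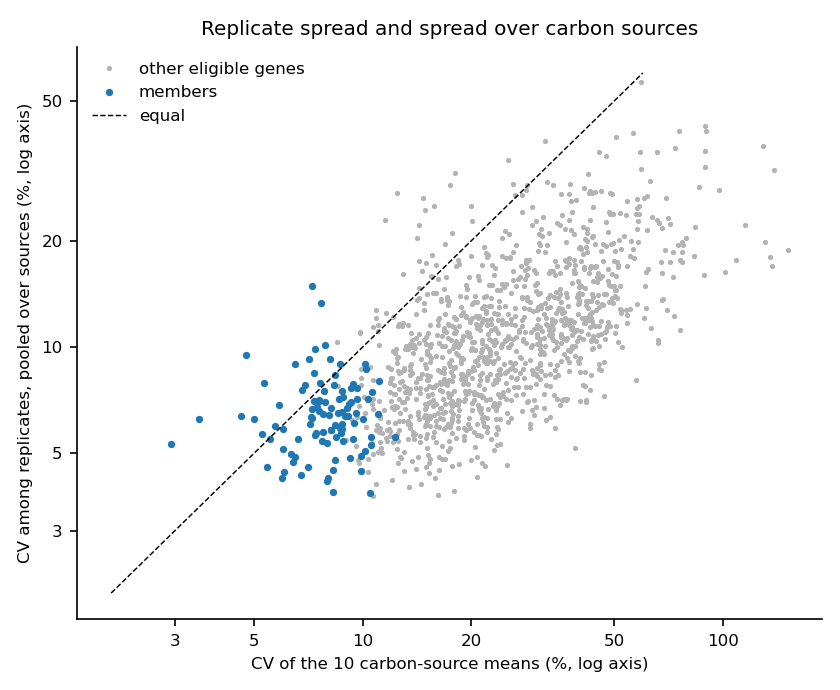
CV among the 3 replicates, pooled over carbon sources, against the CV of the 10 carbon-source means (both in percent, log axes), for members in blue and the other eligible genes in grey. The dashed line marks equality of a spread of single libraries with one of averages of 3, and 21 members lie above it.

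Part of the replicate spread followed the replicate number. In 7 of the 10 sources, all but avicel, cellobiose and xyloglucan, replicate 1 had the lowest share of reads outside genes, at 3.02% beside 8.61% and 8.79% on sorbose and 2.52% beside 3.95% and 3.94% on fructose. In all 7 of these sources replicate 1 was also the highest library of 6 members, the complex I genes *nuo17.8*, *nuo51*, *nuo78* and *nuo21.3c*, the coatomer gene NCU01002 and NCU05791, annotated as SOM1. It was the lowest library of 2 members there, NCU01575 and NCU09202. Without replicate 1 the ratio was 1.22 for *nuo17.8*, 1.34 for *nuo51*, 1.37 for *nuo78* and 1.39 for *nuo21.3c*, and the list drawn anew again held 9 complex I genes. The part of the reads outside genes in these levels was not tested, and what replicate 1 of these sources had in common is not given in the sources used here.

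Among the single libraries, avicel replicate 3 was the lowest for 15 members, trehalose replicate 1 for 12 and mannose replicate 3 for 11. Xylose replicate 1 was the highest library for 11 members, among them *pkc* at 241 CPM. When each library was left out in turn and the list drawn again, 91 to 99 members remained, fewest without avicel replicate 2, and 59 members remained in all 30 lists.

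The rule could also be tried on replicates it had not seen, as a description. Lists of 100 genes were drawn anew on 2 replicate numbers and read in the 10 libraries of the other number; they shared 85, 83 and 86 genes with the members when replicate 1, 2 and 3 was held back. Their median ratio was 1.34, 1.35 and 1.37 in the libraries held back. The eligible genes of the same draws had medians of 2.06, 2.15 and 2.14 in those libraries. Of the 100 genes of each list, 86, 86 and 89 stayed under 1.5 in the libraries not used, beside 14.8%, 13.5% and 12.2% of the eligible genes, and at most 1 reached a ratio of 2. In the libraries used for the choice, where means of 2 replicates were compared, the medians were 1.28 to 1.31.

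Complex I gave 9 of the annotated members. Of 29 genes with a *nuo* symbol, 28 were eligible and these 9 were members, which is 32.1% of the eligible subunits beside 7.95% of all eligible genes. The families named in this and the following paragraphs were drawn up after their values had been seen, so these shares are counts and carry no test. In the 11 other blocks of 100 genes down the ranking, complex I had between 0 and 7 genes. All 28 eligible subunits stayed under a ratio of 2 (median 1.45), up to 1.98 for *nuo6.6*. The one subunit that was not eligible, *nuo14*, missed the floor with 82.1 CPM on fructose and had a ratio of 1.31.

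Members were found in the catalytic part of the complex as well as among small accessory subunits. The flavoprotein *nuo51* (NCU04044), which binds NADH, had 414, 436 and 448 CPM on cellobiose and 381, 344 and 318 CPM on glycerol, a ratio of 1.24. The iron-sulfur subunit *nuo78* (NCU01765) had 821, 698 and 734 CPM on fructose and 624, 519 and 525 CPM on sorbose, a ratio of 1.35. Their partner in the NADH-oxidising module, *nuo24*, was no member, with 285 ± 5.26 CPM on cellobiose and 171 ± 9.12 CPM on avicel and a ratio of 1.67. *nuo49* (NCU02534), a subunit near the ubiquinone site, was tight within its highest source, with 235, 238 and 237 CPM on trehalose, and had 197, 206 and 185 CPM on avicel.

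The other complex I members were *nuo10.4*, *nuo18.4*, *nuo11.6* and *nuo21.3b*, with ratios of 1.24 to 1.31. In plain CPM the complex I members peaked on different sources. *nuo18.4* was highest on sorbose (190 ± 14.1 CPM) and lowest on cellobiose (151 ± 4.28 CPM). *nuo21.3c* was highest on cellobiose (231 ± 2.50 CPM) and lowest on sorbose (180 ± 28.7 CPM). Neither gene varied over the sources by edgeR's F test described further on (adjusted p 0.31 and 0.13). With TMM the lowest source of *nuo18.4* was maltose. Over the 36 pairs of complex I members, the correlation of the 10 means lay between -0.76 and 0.79 with a median of 0.08, as a description over carbon sources that share their libraries. Over all 4950 pairs of members it lay between -0.89 and 0.94 with a median of 0.07.

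Other mitochondrial and multi-subunit families held fewer members. None of the 4 alternative NADH dehydrogenases, single polypeptides that bypass complex I, was eligible. The most variable, *nde-2*, went from 8.85 ± 1.70 CPM on mannose to 167 ± 15.2 CPM on trehalose. Under the floor on every source, *nde-1* had a ratio of 1.84, *nde-3* of 1.92 and *ndi-1* of 4.40. None of 21 genes for mitochondrial protein import was eligible, with a median ratio of 2.90. Of the vacuolar ATPase, the proton pump that acidifies the vacuole, 13 of 14 genes were eligible and only *vma-11* was a member. It had 209 ± 21.4 CPM on cellobiose and 168 ± 1.89 CPM on maltose. Its ratio was 1.43 with TMM, and it stayed in the list under only 1 of the 3 other scalings. Of the proteasome, which degrades ubiquitylated proteins, 24 of 30 genes were eligible, none was a member, and the median ratio was 1.96.

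**Figure D4:**
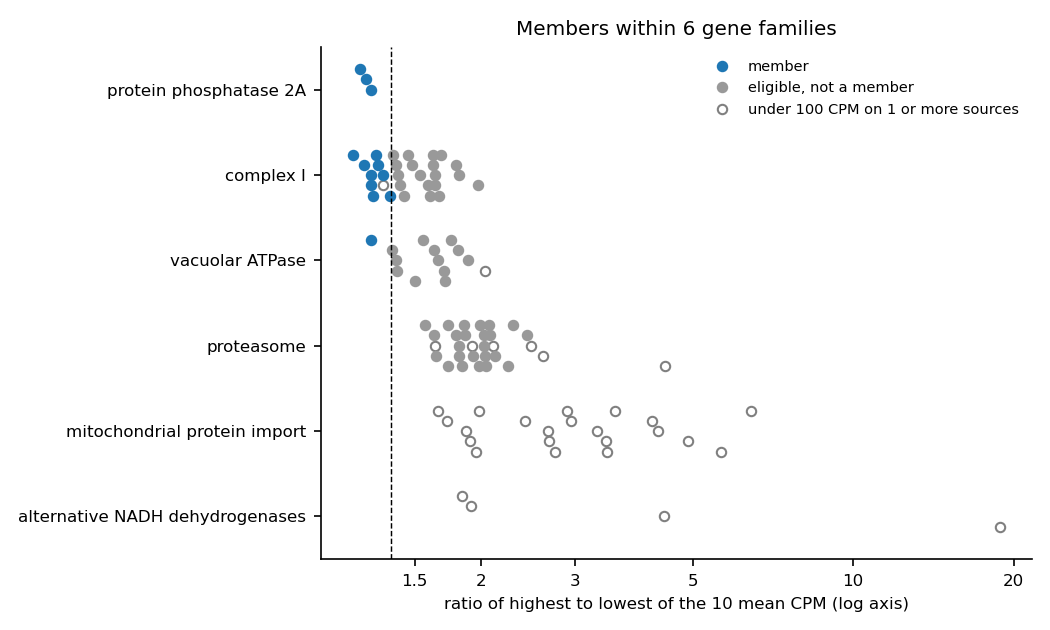
Ratio of the highest to the lowest of the 10 mean CPM (log axis) for each gene of 6 families, with members in blue, eligible genes in grey and genes under the floor of 100 CPM on at least 1 carbon source as open circles. The dashed line is the highest ratio of a member, 1.358. The 3 protein phosphatase 2A genes shown and 9 eligible complex I genes lie on its left, with *nuo14* as an open circle among them, and no proteasome gene does. NCU00488 of protein phosphatase 2A was placed by its identifier and all other genes by symbol, so the shares of that family and the others are not comparable.

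The signalling genes made up 15 members. Among them were 3 genes of protein phosphatase 2A: the regulatory subunit *rgb-1* (NCU09377), the catalytic subunit *pph-1* (NCU06630) and NCU00488, annotated as regulatory subunit A, the scaffold. NCU00488 has no symbol and was placed in the family by its identifier, while the other family genes were matched by symbol. Other genes without a symbol were not matched to families, so the count of 3 is no share of the family. *rgb-1* had 371, 391 and 347 CPM on xylose and 304, 343 and 290 CPM on avicel. *pph-1* had 209, 194 and 190 CPM on glycerol and 156, 179 and 154 CPM on avicel. NCU00488 had 265, 271 and 256 CPM on xyloglucan and 220, 201 and 217 CPM on cellobiose. The libraries of the extreme sources did not overlap in any of the 3 genes, as in 97 of the 100 members and 99.4% of the eligible genes. Each of the 3 was a member under all 4 scalings tried.

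Other signalling members bear on cell shape and the cell wall. *cdc42* (NCU06454), which directs polar growth, had 145, 179 and 158 CPM on mannose and 136, 114 and 131 CPM on cellobiose. *rgf1* (NCU00668), a guanine nucleotide exchange factor gene, went from 118 ± 6.95 CPM on avicel to 160 ± 4.41 CPM on mannose, while *amyc* had 121 ± 2.06 CPM on xyloglucan and 100 ± 2.79 CPM on avicel. The mitogen-activated protein kinase cascade of cell wall integrity gave no members: *mak-1* had a ratio of 1.74, *mek-1* of 1.77, and *mik-1* lay under the floor with 71.6 ± 1.53 CPM on cellobiose.

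In plain CPM the remaining signalling members came mostly as one gene of a pair or cascade. With TMM or DESeq2's size factors the lists drawn anew held no 14-3-3 or cAMP signalling gene, and held *mek-2* beside *mak-2*. The 14-3-3 gene *nfh-2* (NCU02806), for a protein that binds phosphorylated partners, had 1317, 1045 and 1135 CPM on glycerol and 974, 877 and 876 CPM on fructose, while its paralog *nfh-1* had a ratio of 1.46. *cka*, the catalytic subunit of casein kinase 2, had a ratio of 1.27, beside 1.59 for the regulatory subunit gene *ckb-1*. The mitogen-activated protein kinase of cell fusion, *mak-2*, had a ratio of 1.32 and its upstream kinase *mek-2* 1.49. Adenylate cyclase, *cr-1*, went from 180 ± 7.68 CPM on trehalose to 235 ± 9.94 CPM on xyloglucan, while the catalytic subunit genes of protein kinase A, the kinase that cAMP activates, had ratios of 1.38 (*pkac-1*, under the floor) and 3.15 (*pkac-2*) and its regulatory subunit gene *mcb* 1.54. None of the 3 eligible genes of the osmosensing kinase cascade (*os-1*, *os-2* and *os-5*) was a member. NCU01767 (a phosphatase 2C family protein), NCU06500 (annotated as cell division control protein 25, in yeast an activator of Ras) and NCU08343 (an RGS domain protein, a class that acts on G proteins) completed the set, with ratios of 1.25, 1.27 and 1.35.

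Vesicle traffic, the vacuole and the cytoskeleton gave 8 members. Besides NCU01002 these were *vma-11* and NCU02111, annotated as myosin-5, with 260, 250 and 235 CPM on glycerol and 216, 217 and 172 CPM on maltose. *myo2*, a myosin gene, *eat-2*, annotated as the actin assembly protein Sla2, and NCU04100, annotated as vacuolar sorting protein 1, had their lowest mean on trehalose in plain CPM, and of the 3 only NCU04100 did so with DESeq2's size factors or upper-quartile scaling, and none with TMM. *syn-2*, a syntaxin of membrane fusion, and NCU07711, a vacuolar calcium and proton exchanger, stood near the edge with ratios of 1.36 and 1.35. Of the 3 other scalings, 0 kept *syn-2* in the list and 1 kept NCU07711.

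The ubiquitin system gave 5 members even though the proteasome gave none. *cul-1* (NCU05204) had 225, 216 and 223 CPM on mannose and 173, 197 and 184 CPM on cellobiose. NCU02113, a ubiquitin-conjugating enzyme, had 137, 139 and 144 CPM on avicel and 113, 114 and 114 CPM on cellobiose. *mus-8*, a ubiquitin-conjugating enzyme of DNA repair, *csn-2*, a subunit of the COP9 signalosome that takes Nedd8 off cullins, and NCU08955, a UBX domain protein, had ratios of 1.29, 1.26 and 1.34. Of the 7 *csn* genes, only *csn-2* and *csn-1* were eligible.

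Small groups completed the annotated members. The 2 genes of glycosylation were NCU06541, annotated as the mannosyltransferase KTR1, with 162 ± 8.66 CPM on fructose and 205 ± 5.50 CPM on xyloglucan, and *dpm*, with 194 ± 9.97 CPM on trehalose and 256 ± 2.20 CPM on xyloglucan. The 4 genes of gene expression were led by *gul-1*, an RNA-binding protein gene, whose 680, 712 and 665 CPM on xyloglucan stood above 556, 542 and 501 CPM on glycerol, and NCU06540, annotated as a topoisomerase II associated protein, with 168 ± 10.1 CPM on fructose and 125 ± 1.36 CPM on sorbose. *crf4-3* and *aab-1*, a subunit of the CCAAT-binding complex, were the others. Besides NCU05791 the rest were *ff-1* (ratio 1.25), the mitochondrial dynamin GTPase NCU01255 (1.28), NCU07286, annotated as a membrane-associated progesterone receptor component (1.31), and NCU04442, annotated as GAL10 (1.32).

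The 52 members without annotation had ratios from 1.08 to 1.36 and a median of 1.27, the same median as all members. Among them were NCU08340, with a mean of 704 CPM over the 10 sources and a ratio of 1.24, and NCU02289, with 602, 619 and 631 CPM on sorbose and 741, 762 and 829 CPM on fructose.

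Most members lay in the lower part of the eligible range. Their mean level over the 10 sources had a median of 183 CPM, beside 262 CPM over the eligible genes, 55 members lay under 200 CPM (30.8% of the eligible) and 8 lay over 500 CPM (25.1% of the eligible). The next 100 genes of the ranking lay close to this, with a median of 192 CPM, 52 under 200 CPM and 6 over 500 CPM. Per kilobase of gene length, so that genes can be compared, *nfh-2* at 402 and NCU02289 at 353 CPM per kb were among the most abundant members, and the least abundant were NCU08993 at 16.8, NCU00671 at 17.4 and NCU16560 at 19.8 CPM per kb. The median was 64.6 CPM per kb for members, 67.9 for the next 100 genes and 104 for eligible genes. The floor of 100 CPM held for the lowest of the 10 means, so the lowest mean level an eligible gene could have rose with its ratio. The lowest level was 111 CPM among members, 120 CPM in the next 100 genes and 197 CPM in the last full block of 100. The gap between members and eligible genes, in CPM and per kb, is thus partly set by the rule. Members had a median gene length of 3064 bases in RefSeq, beside 2596 for the eligible genes and 2193 to 3207 in the other blocks of the ranking.

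Members were spread over all 7 chromosomes, with 30 on chromosome I, 17 on IV, 16 on V, 11 each on II and III, 9 on VII and 6 on VI. Some lay close together: 8 members had another member as the next gene, beside 0 to 10 genes in the other blocks of the ranking. Within 5 genes 24 members had one, beside 8 to 21 genes in the other blocks. On chromosome IV, NCU06540 and NCU06541 were next to each other (1576641 to 1584941) with *pkc* 3 genes further on, ending at 1595694. On chromosome I, *rgf1* and *vma-11* were neighbours (7626563 to 7634733). The strand setting of the counting is not given in the sources used here, so where transcripts of neighbours overlap their reads cannot be told apart.

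None of the 12 reference genes in common use that were examined was a member, so by the rule each had a higher ratio in plain CPM. The closest was *vma-1*, vacuolar ATPase subunit A, at 1.36 and rank 102, followed by the alpha-tubulin gene *tba-2* at 1.46 and actin (*act*) at 1.50 and rank 201. Actin went from 1321 ± 70.3 CPM on mannose to 1983 ± 54.5 CPM on sorbose. The cyclophilin gene *csr-1* (1.83), histone H3 (*hH3*, 1.93), beta-tubulin (*Bml*, 1.96), histone H4 (*hH4-1*, 2.06), the alpha-tubulin gene *tba-1* (2.11) and elongation factor 1-alpha (*tef-1*, 2.22) stood in the middle of the ranking. The order of the reference genes moved with the scaling. With TMM *csr-1* had a ratio of 1.60 and *tba-2* of 1.65. There *vma-1* had a ratio of 1.36, while members reached ratios of up to 1.54.

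Ubiquitin (*ubi*) had a ratio of 2.80, with 4066 ± 685 CPM on cellobiose and 1453 ± 141 CPM on sorbose. Glyceraldehyde-3-phosphate dehydrogenase (*gpd-1*), an enzyme of glycolysis, went from 1583 ± 149 CPM on avicel to 7320 ± 852 CPM on cellobiose, a ratio of 4.63. The plasma membrane proton pump gene *pma-1* went from 682 ± 147 CPM on mannose to 4747 ± 390 CPM on trehalose, a ratio of 6.96. Genes with close copies, such as the tubulins, histones and ubiquitin, can be undercounted, because multiply mapped reads were credited to no gene.

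Which carbon source held a member's extremes depended on how libraries were scaled. In plain CPM, xyloglucan held the highest mean of 23 members and cellobiose that of 10, while avicel held the lowest mean of 19, cellobiose that of 18 and trehalose that of 16. Of the eligible genes, 13.4% were highest on xyloglucan and 11.2% on cellobiose, and 15.2%, 18.4% and 18.5% were lowest on avicel, cellobiose and trehalose. When CPM were scaled by edgeR's trimmed mean of M values (TMM), cellobiose held the highest mean of 41 members and the lowest of 2, and with DESeq2's size factors the highest of 43 and the lowest of 1. The scaling factors of the cellobiose libraries were the smallest, at 0.893 to 0.897 in TMM, within 0.893 to 1.06 over all libraries.

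In the cellobiose libraries the median log2 difference from the other 9 sources over all tested genes was -0.22 in plain CPM and -0.04 after TMM, and the median over the members was -0.06 and 0.12, so its sign flipped. Relative to the median of all tested genes, members stood 0.16 higher on the log2 scale on cellobiose under each of the 4 scalings, and the eligible genes stood 0.17 higher. The members' median on cellobiose thus lay close to that of the eligible genes. On trehalose the members stood 0.08 and the eligible genes 0.05 above the tested genes, and on xyloglucan 0.01 below in plain CPM.

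**Figure D5:**
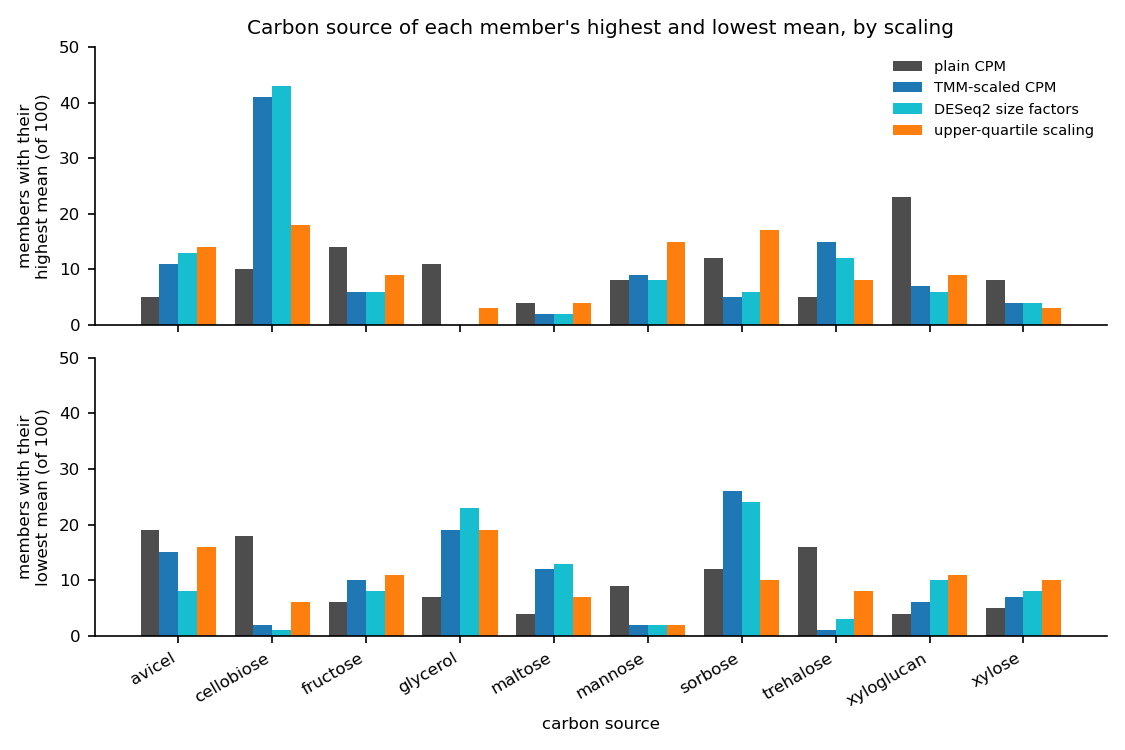
Number of the 100 members (vertical axes) whose highest mean (top) or lowest mean (bottom) fell on each carbon source, under plain CPM, TMM, DESeq2 size factors and upper-quartile scaling. On cellobiose the count of highest means goes from 10 in plain CPM to 41 and 43 with TMM and DESeq2, and the count of lowest means from 18 to 2 and 1.

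The list itself moved less than its extremes. With TMM 69 of the members stayed in the list, with DESeq2's size factors 69 and with upper-quartile scaling 86, and 65 stayed under all 3. NCU04190 had a ratio of 1.08 in plain CPM, 1.14 with upper-quartile scaling, 1.26 with TMM and 1.28 with DESeq2's factors, with cellobiose as its highest source each time. The steadiest gene under TMM and DESeq2 was NCU00488 of protein phosphatase 2A, with ratios of 1.13 and 1.11, and under upper-quartile scaling NCU04370. The lists drawn anew held 7 complex I genes with TMM or DESeq2 and 9 with upper-quartile scaling, and no proteasome gene under any of them. Of the complex I members, *nuo51*, *nuo78* and *nuo21.3c* each stayed under only 1 of the 3 scalings.

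Steady did not mean without measurable differences. By edgeR's quasi-likelihood F test over the 10 carbon sources, with Benjamini-Hochberg adjustment over 8501 genes and a threshold of 0.01, 67 of the 100 members varied, beside 93.1% of all genes tested and 94.7% of the eligible genes. The rule used the same contrast, so these shares are a description. The smallest adjusted p in this test were 1.1e-07 for NCU09711 and 1.2e-07 for *crf4-3*. The largest were 0.76 for *cdc42* and 0.40 for *nuo17.8*. The steadiest gene by ratio, NCU04190, was among the 67, with an adjusted p of 0.0030 in this test, which used TMM. NCU09711 had 271, 275 and 288 CPM on mannose and 199, 192 and 226 CPM on maltose, and *crf4-3* 146, 158 and 161 CPM on trehalose and 114, 121 and 109 CPM on avicel. In 97 members the 3 libraries of the highest source all lay above those of the lowest, as in 99.4% of the eligible genes, the exceptions being *nuo10.4*, NCU06740 and NCU05791.

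Each carbon source was also set against the mean of the other 9 in the same fit with TMM. On cellobiose 33 members were higher, beside 27.5% of all tested genes, and 0 lower, beside 30% (1 at an unadjusted p under 0.05 in edgeR); the direction of the members' median there rests on the scaling. On sorbose 16 were lower (16.9% of tested genes) and 1 higher (17.7%). On glycerol 10 were lower (11.9%) and 0 higher (15.3%), with 6 higher at an unadjusted p under 0.05 in edgeR. The rule used these levels as well, so the counts are a description of where members still differed. On maltose 10 were lower (17.5%) and 3 higher (20.7%). On trehalose 11 were higher (30%) and 2 lower (27%), and on mannose 10 were higher (27.2%) and 4 lower (24.8%). Avicel had 6 higher (23.2%) and 9 lower (23.4%), fructose 3 (19.8%) and 7 (20%), xyloglucan 7 (23.5%) and 4 (22.3%), and xylose 3 (10.8%) and 3 (7.34%).

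The largest of the 142 differences called were small in size. On cellobiose NCU10518 was 0.44 ± 0.06 (SE) higher on the log2 scale, *syn-2* 0.43 ± 0.08 and NCU07451 0.39 ± 0.08. On sorbose NCU06540 differed by -0.40 ± 0.06 and the vacuolar exchanger gene NCU07711 by -0.38 ± 0.08. Elsewhere the largest were *crf4-3* on trehalose (0.36 ± 0.04) and NCU09711 on maltose (-0.36 ± 0.05). The exchange factor gene *rgf1* was called on several sources, at -0.28 ± 0.06 on avicel, 0.28 ± 0.05 on cellobiose, -0.27 ± 0.06 on maltose and 0.22 ± 0.05 on mannose.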

How the data were processed

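RNA-seq was made from mycelia of the WT strain on 10 carbon sources, 3 libraries each. Per the labels and the study's methods, the authors filtered reads on base quality, aligned them by TopHat 2.0.4 to OR74A predicted transcripts and summed them by gene in HTSeq 0.6.0, and deposited raw counts in 1 table per library. HTSeq's totals of reads on no gene (2.43% to 8.79%), ambiguous (1.44% to 2.14%) and multiply mapped (0.217% to 6.05%) were left out of library sizes. No pair of replicates agreed within sampling noise (lowest chi-square per degree of freedom 5.50). CPM were computed from the deposited counts on plain library sums. Differences over carbon sources were tested with edgeR 4.0.16 (glmQLFit, glmQLFTest, TMM, filterByExpr) in R 4.3.3, with Benjamini-Hochberg adjustment over all genes tested, and checked on simulated data. Alternatives were DESeq2 1.42.0, other scalings, floors, measures, covariates and left-out libraries. Of 9758 identifiers, 9757 matched the RefSeq table of assembly NC12, which gave symbols, positions and gene lengths, introns included. Gene groups were read from symbols and the study's supplementary annotations, in place of the product names first planned. The ID planned for vma-2 is vma-8 in RefSeq and was dropped from the reference genes. Genes were named in the text by rule: the 15 lowest ratios, the 3 on each side of the threshold, the 2 lowest of each group, the 3 highest and lowest per kb, the reference genes and the 2 smallest and largest p of the F test; the others named were chosen after their values were seen. The members, lists and tests were chosen with earlier results of these data known. No sequence was used, and 1 member that the rule would name is not reported here.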

Additional observations from a re-analysis of the deposited data

How the results depend on the processing

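The median ratio over the members, 1.27, was 1.26 to 1.31 under the alternatives run for it, while single members moved more: 26 with TMM and 28 with DESeq2's factors moved by more than their replicate spread, to ratios of up to 1.54 and 1.56. The list of members depended more on the floor and on the measure. Of the 100 members, 59 remained with a floor of 50 CPM, 35 with a floor of 200 CPM (all 35 that reach it) and 44 with no floor; 87 remained when genes were ranked by the CV of the means, 81 by the ratio over 30 libraries and 51 by the lowest F statistic. Leaving out a replicate number kept 83 to 86, a single library 91 to 99 and a carbon source 80 (avicel or cellobiose) to 98 (glycerol). With every scaling and measure and the floor of 50 CPM, 28 members remained. With the floors of 200 CPM and none as well, 6 did, both counts added after seeing the data: *nuo17.8*, NCU01992, *rgb-1*, NCU04370, NCU08340 and NCU00488.

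In edgeR's F test 67 of the 100 members varied, and the count was 60 without TMM, 69 without a filter, 71 with a covariate for reads outside genes, 88 by DESeq2's likelihood ratio test and 46 without the cellobiose libraries, which was also chosen after seeing the data. It was 54 to 74 when a single library was left out, and 8 to 34 without a replicate number (34 without replicate 1, 29 without replicate 2, 8 without replicate 3), where each source has 2 libraries. A fit with a replicate block gave 72; by correlation the numbers do not pair all samples, since 53 of 135 pairs with a shared number correlated above 0.1 and 11 of 30 libraries correlated best with their own number, but replicate 1 stood apart in 7 sources in its reads outside genes. Groups of 3 libraries are too small for a test of outlying libraries, and which libraries shared a sequencing pool is not given in the sources used here, so its part was not tested.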
